A study of Mus musculus with 8 samples.

Results

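Myelin and oligodendrocyte transcripts of the hypothalamus were followed through 9 genes, Mbp, Mag, Cnp, Mobp, Mog, Trf, Mal, Cldn11 and Olig1, taken by symbol. Of these, 8 had a probe annotated to exactly 1 gene, with 1 probe each, among 13840 genes named in this way on 33012 probes. No probe was annotated to Mobp, which is not analysed here. Olig1 lacked a value on some arrays, so 7 of the genes entered the tests, among 11169 probes with a value on all 7 arrays compared. The mice were male C57BL/6J animals, an inbred strain, grouped by how much weight they gained on shared diets. High gainers and low gainers were all fed a high-fat diet for 6 weeks, a low-fat diet for 2 weeks and the high-fat diet for 6 more weeks, beginning as young adults per the study's methods. For such a schedule, the paper describes the low-fat diet as restricted below the amount each mouse had eaten before. RNA of 20 mice was combined into 1 pool per group and run on 4 arrays per pool. The arrays of a pool are technical replicates, so a p-value here weighs the difference between 2 pools against array noise, and the spread between mice is not in it. Arrays are called high gainer array 1 to 4 and low gainer array 1 to 4 after their labels. Low gainer array 2 is given apart, because its log2 intensities correlated with those of the other arrays across probes at an r of 0.228 to 0.253, where the other 7 correlated with each other at 0.945 to 0.983. The lowest of these was between low gainer arrays 1 and 4, of the same pool. The highest was between high gainer array 3 and low gainer array 1, of different pools. As a check of the tissue, 22 of 30 hypothalamus markers had a probe, and 16 of these had a value on all 7 arrays. Of all 13840 named genes, 6170 did. Among the 16 was the peptide precursor Oxt, at 8.0 to 10.4 on high gainer arrays and 9.62 to 11.6 on low gainer arrays 1, 3 and 4.

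Myelin is the layered membrane that oligodendrocytes wrap around axons of the brain. Its compact layers hold Mbp, which binds the inner faces of the membrane together, and proteolipids such as Mal. Other proteins sit at defined places: Mag at the layer facing the axon, Mog at the outer surface, Cnp in the cytoplasmic channels, and Cldn11 in the tight junctions between turns. Oligodendrocytes also make transferrin, encoded by Trf, which carries iron. Olig1 is a transcription factor of the oligodendrocyte lineage. In RNA of whole tissue, fewer oligodendrocytes and less transcript per oligodendrocyte cannot be told apart.

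The sequences before the start of 4 of these genes are shown because the values of Mag ran closely with those of Cnp, and the values of Mal with those of Cldn11, from array to array in the results that follow. Trf ran as closely with Mal and Cldn11 and is not shown, since the table of sequences used here has no entry for it. Each is the 250 bases before an annotated start, 5′ to 3′ on the gene's own strand, from RefSeq on build GRCm38.p6. Mag lies at chr7:30914864-30915113 on the minus strand, Cnp at chr11:100574689-100574938 on the plus strand, Mal at chr2:127656696-127656945 on the minus strand and Cldn11 at chr3:31149670-31149919 on the plus strand. For Mag, the first listed of 3 starts was taken. Capitals mark the letters ACAAAG or their reverse complement CTTTGT, a core bound by SOX factors such as Sox10, the factor that drives myelin genes.
Mag: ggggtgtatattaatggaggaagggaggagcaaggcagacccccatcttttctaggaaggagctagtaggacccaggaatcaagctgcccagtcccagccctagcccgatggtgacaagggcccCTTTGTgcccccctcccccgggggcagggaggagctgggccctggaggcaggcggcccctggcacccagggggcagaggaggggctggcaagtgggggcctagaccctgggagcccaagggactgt
Cnp: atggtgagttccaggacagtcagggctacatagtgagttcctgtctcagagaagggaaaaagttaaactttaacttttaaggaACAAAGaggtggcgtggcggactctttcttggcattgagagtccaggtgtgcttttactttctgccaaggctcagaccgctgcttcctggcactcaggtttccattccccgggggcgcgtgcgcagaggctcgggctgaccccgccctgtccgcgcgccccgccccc
Mal: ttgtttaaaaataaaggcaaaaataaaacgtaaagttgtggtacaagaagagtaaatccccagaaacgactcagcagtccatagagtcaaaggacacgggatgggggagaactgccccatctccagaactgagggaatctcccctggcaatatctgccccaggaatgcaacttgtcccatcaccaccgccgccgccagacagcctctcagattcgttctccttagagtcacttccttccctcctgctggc
Cldn11: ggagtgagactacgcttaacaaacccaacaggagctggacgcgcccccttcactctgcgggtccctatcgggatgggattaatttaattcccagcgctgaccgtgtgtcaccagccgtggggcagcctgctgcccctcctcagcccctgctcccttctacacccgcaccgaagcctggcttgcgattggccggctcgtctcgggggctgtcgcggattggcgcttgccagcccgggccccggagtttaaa
Mag held 1 match, on the opposite strand, and Cnp held 1 match on its own strand. Mal and Cldn11 had 0 matches in this window. Of the 32851 windows of this length in the RefSeq table, 16.5% held the letters on either strand. A match is a run of letters and not a measured site. The arrays of a pool carried the same RNA, so values that run together between them do not measure what these sequences do. A link between the letters and the values was not tested. Of the 9 genes, 6 had an entry in that table. Mog had 0 matches and Mobp, whose transcript is not analysed here, had 6. The third listed start of Mag had 0 matches in its window.

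Mbp and Mag were the 2 genes whose high gainer arrays all lay above low gainer arrays 1, 3 and 4. After normalization, 2.07% of all probes did so. Mbp had a deposited intensity of 43.5, 66.7, 42.1 and 48.5 on high gainer arrays 1 to 4, against 36.1, 9.68 and 33.3 on low gainer arrays 1, 3 and 4. The pools did not overlap, and low gainer array 3 lay far below the other low gainer arrays. Mag had 1.46, 1.53, 0.734 and 0.796 on high gainer arrays 1 to 4, against 0.506, 0.209 and 0.658 on low gainer arrays 1, 3 and 4. High gainer arrays 3 and 4 lay close to low gainer array 4. In means, Mbp was at 50.2 ± 11.3 (SD, n = 4) in high gainers and 26.4 ± 14.5 (SD, n = 3) in low gainers, and Mag at 1.13 ± 0.421 (n = 4) and 0.458 ± 0.228 (n = 3).

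The other genes of the myelin membrane overlapped between the pools. Cnp, the phosphodiesterase of myelin, had 1.93, 2.37, 1.34 and 1.30 on high gainer arrays 1 to 4, against 1.41, 0.681 and 1.61 on low gainer arrays 1, 3 and 4. Only 2 of the 4 high gainer arrays lay above the highest of these low gainer arrays. Mog, the glycoprotein of the outer surface, had 2.04, 2.31, 1.54 and 1.95 on the high gainer arrays, against 1.93, 1.05 and 2.74 on the low gainer arrays. Low gainer array 4 was thus above every high gainer array and low gainer array 3 below every one. Mal, a proteolipid of membrane sorting, had 1.97, 2.66, 1.86 and 1.83 in high gainers, against 1.44, 1.39 and 3.28 in low gainers. Cldn11, the myelin claudin, had 1.56, 2.36, 1.48 and 1.64 in high gainers, against 1.09, 0.811 and 3.06 in low gainers. For both, low gainer array 4 had the highest value of the 7 arrays and the other low gainer arrays the lowest values.

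Trf and Olig1 also split the low gainer arrays. Trf had 10.7, 15.0, 9.81 and 9.47 on high gainer arrays 1 to 4, against 4.64, 5.09 and 15.4 on low gainer arrays 1, 3 and 4. Every high gainer array was above low gainer arrays 1 and 3, and every one was below low gainer array 4. Olig1 had 0.587, 0.803 and 0.215 on high gainer arrays 1, 2 and 4, against 0.107 and 0.425 on low gainer arrays 1 and 4. It had no value on high gainer array 3 or low gainer array 3, the array of each pool on which the 7 other genes lay below their pool mean. With probes that had at least 2 values per pool, the log2 difference of Olig1 was 1.06, with a 95% interval from -0.29 to 2.41 and an adjusted p of 0.925 by limma.

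**Figure D1:**
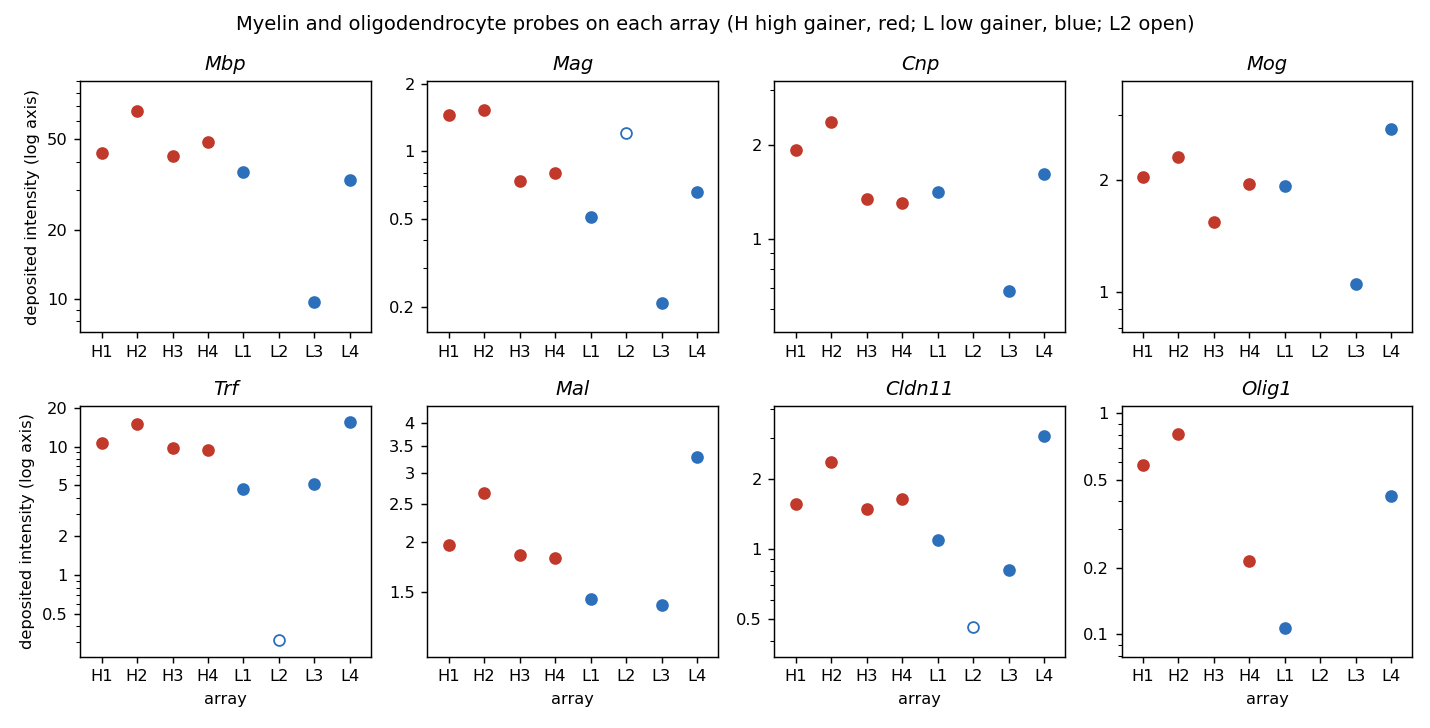
Deposited intensity on a log axis for the 8 myelin and oligodendrocyte probes, 1 point per array with a value; H1 to H4 are the high gainer arrays (red), L1 to L4 the low gainer arrays (blue), and low gainer array 2 is drawn open. Mbp and Mag are the probes whose red points all lie above L1, L3 and L4, while L4 is the highest point for Mog, Trf, Mal and Cldn11.

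Between the pools, 0 of the 7 tested genes passed an adjusted p of 0.05 by limma, where 3 of all 11169 probes did (0.0269%), the pituitary hormone transcripts Gh, Prl and Cga. These were the 3 tested of 18 pituitary markers, all higher in high gainers with a median log2 difference of 2.89, and their part in the myelin values was not tested. All 7 genes had a difference above 0, with a median log2 difference of 0.52 against -0.0024 over all probes (49.6% of probes above 0). The high gainer level of Mag was 2.56-fold that of low gainers, or 1.36 on the log2 scale (95% interval by limma 0.60 to 2.11). The Mag probe was dim, with 6.94% of probes below it on low gainer array 3. With a pseudocount of 0.186, Mag was at 2.05-fold. Mbp was at 2.22-fold, or 1.15 on the log2 scale (95% interval by limma 0.37 to 1.92). The adjusted p by limma was 0.750 for both genes, and the unadjusted limma p was 0.00173 for Mag and 0.00667 for Mbp. These 2 were the genes with an unadjusted limma p under 0.05, as were 724 of all probes. They also passed an unadjusted limma p of 0.01 with 1.5-fold, which 0.457% of all probes passed on the higher side. When the spread was estimated from each probe alone, 0 of the 7 genes passed the same thresholds, as did 0.0806% of all probes on the higher side. The unadjusted p in this test of each probe alone was 0.101 for Mbp and 0.0379 for Mag. Its standard error was 0.571 for Mbp and 0.483 for Mag, against 0.362 and 0.353 by limma. The pooled SD of Mbp within pools was larger than that of 98.9% of probes. An Mbp interval above 0 was therefore found with limma and not with the probe's own spread. The share of probes with all high gainer arrays above low gainer arrays 1, 3 and 4 was 2.07%.

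The 5 other tested genes had intervals that included 0. Trf differed by 0.63 (interval -0.10 to 1.36) and Cnp by 0.52 (interval -0.07 to 1.11) on the log2 scale, and the limma adjusted p was 0.787 for each. It was 0.28 for Cldn11 (interval from -0.43 to 0.99), 0.11 for Mal (from -0.46 to 0.68) and 0.11 for Mog (from -0.44 to 0.65), with adjusted p of 0.916, 0.963 and 0.963 by limma.

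Single low gainer arrays set the size of these differences. Without low gainer array 3, the median log2 difference of the 7 genes was 0.20, with Mag at 0.91, Mbp at 0.50, Trf at 0.37 and Cnp at 0.20. Cldn11, Mal and Mog were then below 0, at -0.041, -0.061 and -0.21. Without low gainer array 4 the median was 0.81, with Trf at 1.21, Cldn11 at 0.81, Mal at 0.48 and Mog at 0.37. The adjusted p of Trf by limma was then 0.0611. In that comparison 5 of the 7 genes had all high gainer arrays above low gainer arrays 1 and 3, against 9.23% of all probes. Without low gainer array 1, Mbp was at 2.78-fold and Mag at 2.82-fold, with limma adjusted p of 0.0581 for Mbp and 0.0705 for Mag. In that fit calls were more frequent across the whole array, with 171 of 11247 probes (1.52%) at an adjusted p under 0.05 by limma and 0 of the 7 genes among them. On the log2 scale, Trf was then at 0.31, Cldn11 at 0.084 and Mal at -0.093.

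**Figure D2:**
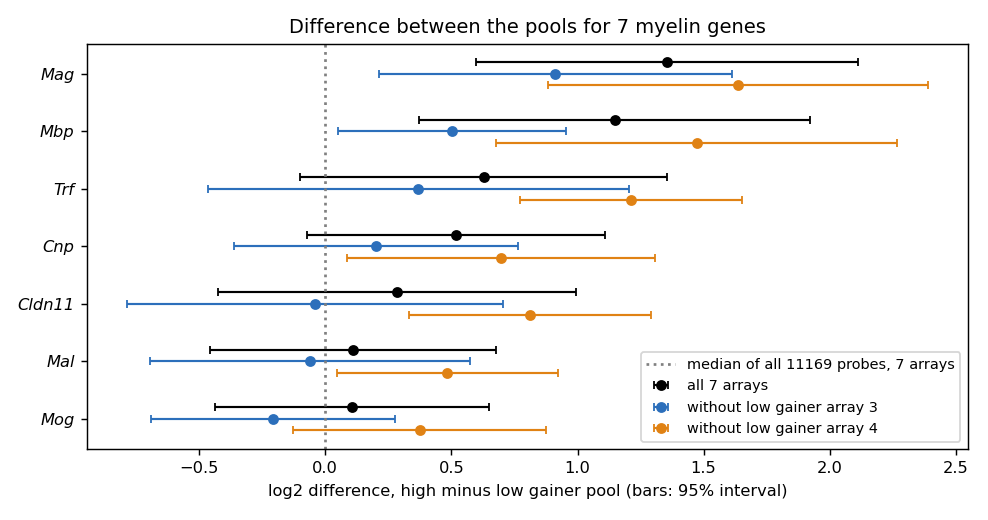
High minus low gainer pool on the log2 scale for the 7 tested genes, with 95% intervals from limma, for all 7 arrays (black), without low gainer array 3 (blue) and without low gainer array 4 (orange); the dotted line is the median of all probes. Mag and Mbp have intervals above 0 in each of these comparisons, and Cldn11, Mal and Mog lie below 0 without low gainer array 3.

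The 7 genes moved together between arrays that carried RNA of 1 pool. Each gene was expressed as its log2 deviation from its own pool mean. On high gainer array 2, 7 of 7 genes lay above the pool mean, with a median of 0.46 and a range from 0.21 to 0.49, where 49.3% of all probes lay above. On high gainer array 3, 0 of 7 lay above, with a median of -0.25, where 48.3% of all probes did. On low gainer array 4, 7 of 7 lay above, with a median of 0.63 and a range from 0.35 to 1.15, against 47.6% of all probes. On low gainer array 3, 0 of 7 lay above, with a median of -0.63 and a range from -1.28 to -0.34, against 54.9% of all probes. High gainer array 4 had 1 of 7 genes above and a median of -0.15, and high gainer array 1 had 3 of 7 above and a median of -0.04. All 7 genes were thus above the pool mean on high gainer array 2 and low gainer array 4 and below it on high gainer array 3 and low gainer array 3, a combination shown by 16.6% of all probes. The array-to-array spread within pools was also wide, with a median pooled SD of 0.62 over the 7 genes on the log2 scale, against 0.28 over all probes.

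Low gainer array 1 divided the genes into 2 sets, named here after their values were seen. Mbp, Mag, Cnp and Mog lay above the low gainer mean there, at 0.66, 0.28, 0.27 and 0.10. Trf, Mal and Cldn11 lay below it, at -0.64, -0.40 and -0.40. Over the 7 arrays, the deviations of Mag and Cnp had a Pearson r of 0.972, and those of Trf, Mal and Cldn11 correlated pairwise at 0.969 to 0.997. The r of Mal with Cldn11 was 0.978. Over all 21 pairs of genes the r lay between 0.492 (Mbp with Trf) and 0.997 (Trf with Mal), with a median of 0.739. These r values describe 7 arrays of 2 RNA pools, which the genes share, and carry no p.

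**Figure D3:**
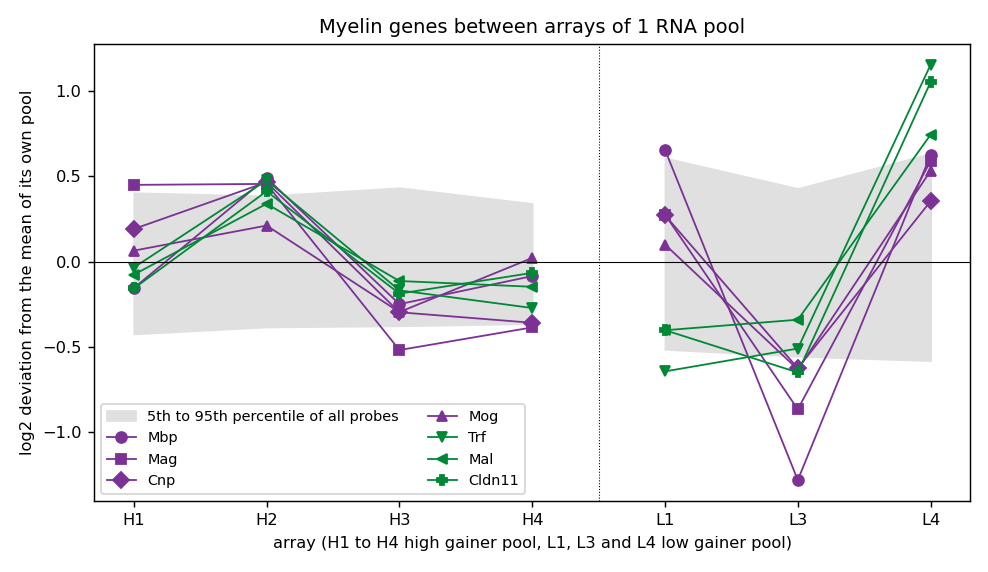
Log2 deviation of the 7 tested genes from the mean of their own pool on high gainer arrays H1 to H4 and low gainer arrays L1, L3 and L4; lines join the values of a gene and imply no order of the arrays, and the grey band spans the 5th to 95th percentile of all probes. All genes lie above 0 on H2 and L4 and below 0 on H3 and L3, while on L1 Mbp, Mag, Cnp and Mog (purple) lie above 0 and Trf, Mal and Cldn11 (green) below.

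The swing between arrays was not limited to myelin genes. Of 11 axon and neurofilament genes tested, 10 lay above the pool mean on high gainer array 2 and 10 on low gainer array 4, with medians of 0.23 and 0.25. On high gainer array 3 and low gainer array 3 the median of that list was -0.08 and -0.20. Of 13 astrocyte markers, 10 lay above the pool mean on high gainer array 2 and 10 on low gainer array 4, and 0 on high gainer array 3. Of 12 neuron markers, 8 lay above it on high gainer array 2 and 11 on low gainer array 4. The 14 other myelin proteins had medians of -0.29 on low gainer array 3 and 0.43 on low gainer array 4. Of 30 other mature oligodendrocyte genes, 24 lay above the pool mean on low gainer array 4, and 15 did on low gainer array 3. The 5 genes listed as oligodendrocyte transcription factors had medians of 0.08 on low gainer array 3 and -0.04 on low gainer array 4. Cytosolic ribosome genes went the other way on low gainer array 3, where 33 of 34 lay above the pool mean with a median of 0.24. Hypothalamus markers, such as Oxt, Avp and Hcrt, had a median of 0.15 on low gainer array 3, with 13 of 16 genes above. Low gainer array 3 also had a value for 13657 probes, the fewest of the 8 arrays, and low gainer array 4 for 16873, the most. Between the pools, these lists had 0 calls by limma, with a median log2 difference of -0.01 for axon genes (5 of 11 above 0), 0.03 for neuron markers (8 of 12) and 0.06 for astrocyte markers (8 of 13). The median was -0.22 for ribosome genes (4 of 34 above 0) and -0.12 for hypothalamus markers (3 of 16). The 3 red cell markers tested had a median of -0.95, with 0 calls. The part of these array differences in the myelin result was not tested.

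**Figure D4:**
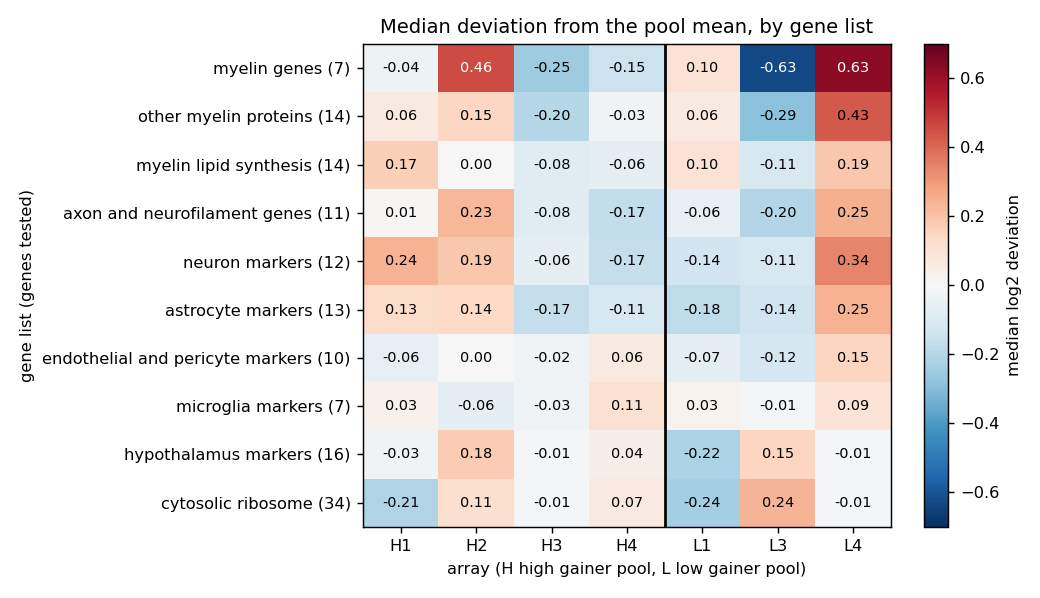
Median log2 deviation from the pool mean on each of the 7 arrays for the myelin genes and 9 other gene lists, with the number of genes tested in brackets; red is above and blue below the pool mean. The myelin genes run from -0.63 on L3 to 0.63 on L4, and the axon, neuron and astrocyte lists have the same signs on L3 and L4 with medians closer to 0.

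Among other named genes, the 10 whose deviations were most like the median of the 7 myelin genes had an r between 0.983 and 0.993 over the 7 arrays. They were Rundc3a, Calb2, Hid1, Chn2, Arpc4, Ppp1ca, Dnm1, Atp6v0d1, Prmt2 and Laptm4a, and 0 of them belonged to a myelin or oligodendrocyte list. Those lists held only 14, 14, 5, 30 and 2 of the 6163 genes ranked, so 0 among 10 genes is uninformative. Calb2 is the neuronal calcium-binding protein calretinin, Dnm1 a dynamin of synaptic vesicle retrieval, and Arpc4 a subunit of the actin-nucleating complex. Their log2 differences between the pools lay between 0.03 and 0.82, and their limma adjusted p between 0.752 and 0.990. An r above 0.5 was found for 26.4% of 6163 named genes, for 8 of 14 other myelin proteins, 12 of 30 other mature oligodendrocyte genes, 8 of 11 axon and neurofilament genes and 8 of 13 astrocyte markers. The closest oligodendrocyte genes were Anxa5, an annexin, at an r of 0.967 and Plekhb1 at 0.963. At the other end, Omg, the oligodendrocyte myelin glycoprotein, had an r of -0.711 and Ppp1r14a an r of -0.895. Omg had 24.5, 19.9, 22.9 and 25.1 on high gainer arrays 1 to 4, against 23.9, 27.5 and 21.3 on low gainer arrays 1, 3 and 4, and so was highest on low gainer array 3, where Mbp and Mag were lowest.

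Other proteins of myelin had differences of both signs between the pools. Of 26 genes in that list, 18 had a probe and 14 were tested, with 0 called in either direction by limma. Of the 14, 9 were above 0, against 49.6% of all probes. Their log2 differences ran from -0.27 to 0.70, with a median of 0.18. Cd82, a tetraspanin, had 1.32, 1.49, 1.03 and 1.27 on high gainer arrays, against 0.906, 0.516 and 1.19 on low gainer arrays 1, 3 and 4, a log2 difference of 0.59. The difference was 0.58 for Lgi3, 0.70 for Gjb1, the connexin of oligodendrocyte gap junctions, and 0.39 for the brightest probe of Sema4d, a semaphorin. The limma adjusted p of these 4 genes ran between 0.752 and 0.818. They had the smallest limma p of the list and were all above 0, so they do not stand for the whole list.

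In the list for myelin lipids, mostly enzymes but also holding the membrane protein Plp2, the pools overlapped except for Gal3st1, the sulfotransferase that makes sulfatide. Over all probes, 2.07% had every high gainer array above low gainer arrays 1, 3 and 4. All 14 genes of the list with a probe were tested, with 9 above 0 (49.6% of all probes), a median log2 difference of 0.11 and 0 called. Gal3st1 had 0.655, 0.555, 1.03 and 0.468 on high gainer arrays, against 0.412, 0.361 and 0.427 on low gainer arrays 1, 3 and 4, which is 0.63 on the log2 scale (limma adjusted p 0.756). Fa2h, the fatty acid hydroxylase of myelin galactolipids, had 28.7, 25.1, 35.4 and 30.5 on high gainer arrays, against 31.8, 25.1 and 20.0 on low gainer arrays 1, 3 and 4, a log2 difference of 0.27. Elovl7, a fatty acid elongase, was at 0.36 and Cyp51, an enzyme of cholesterol synthesis, at 0.36.

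Lineage factors and precursor genes were sparsely measured. In a list of 13 genes, mostly transcription factors but also holding Carhsp1, 5 were tested, with 0 called and a median log2 difference of 0.25. Olig2, which specifies the lineage, had 0.515, 0.509, 0.316 and 0.337 on high gainer arrays, against 0.419, 0.247 and 0.322 on low gainer arrays 1, 3 and 4, which is 0.25 on the log2 scale (limma adjusted p 0.914). Nkx6-2, a factor of maturing oligodendrocytes, was at 0.37, St18 at 0.27 and Carhsp1 at -0.15. No probe was annotated to Sox10 alone. Of 15 precursor genes, 2 were tested, with 0 called. Bcan, a matrix proteoglycan, was at 0.39 and Sox11 at 0.07, and the precursor receptor Pdgfra had a value on 0 of the 7 arrays.

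The remaining genes listed for mature oligodendrocytes, some of which other cells also make, had mostly differences below 0. Of 40 genes, 30 were tested, with 9 above 0 (49.6% of all probes), a median log2 difference of -0.08 and 0 called by limma. Car2, the carbonic anhydrase of oligodendrocytes, had 7.02, 10.3, 7.91 and 6.93 on high gainer arrays, against 9.36, 10.7 and 13.5 on low gainer arrays 1, 3 and 4, a log2 difference of -0.48. Gstp1, a glutathione transferase, had 4.43, 5.84, 5.40 and 5.44 on high gainer arrays, against 5.98, 7.81 and 7.70 on low gainer arrays 1, 3 and 4, with no overlap and a log2 difference of -0.43. After normalization, 1 of the 30 genes had all high gainer arrays below low gainer arrays 1, 3 and 4, as did 302 of all 11169 probes. Values were lower in high gainers also for Ptgds, the prostaglandin D synthase of glia and meninges, at -0.39, and for Apod, a lipid carrier, at -0.37. The limma adjusted p of these 4 genes ran between 0.752 and 0.766. Choroid plexus markers had a median log2 difference of -0.18, with 2 of 9 above 0, and their part in these values was not tested. The difference between the mature oligodendrocyte list and the 7 myelin genes was not tested.

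On low gainer array 2, 3 of the 8 probes had a value. Because that array did not follow the others probe by probe, whether its values belong to the genes they are listed under is uncertain. It lists Mag at 1.21, Trf at 0.313 and Cldn11 at 0.463. Mbp, Cnp, Mog, Mal and Olig1 had no value there. With that array included, these 3 genes were the members tested, among 5375 probes with a value on all 8 arrays. Their log2 differences were 0.78 for Mag, 1.64 for Trf and 0.51 for Cldn11, each with an adjusted p of 0.717 by limma.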

How the data were processed

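Per the study's methods, cRNA labelled with digoxigenin was hybridised to the Applied Biosystems mouse genome survey array, which has 1 colour and is read by chemiluminescence, and the authors scaled the arrays to each other with quantile normalization. The deposited values are normalized intensities, taken as linear because all are above 0 and skewed. Their median was 0.714 to 1.05 per array, and cells are empty for many probes. Precision against array noise is limited by how many arrays were run, and each group remains 1 RNA pool whatever that number.

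Of 33012 probes, the platform annotation gave 1 gene for 14411, several for 247 and none for 18354. Of the first, 14402 matched a RefSeq gene. Log2 intensities of probes with a value on all 7 arrays were quantile normalized again and fitted in R 4.3.3 with lmFit and eBayes (trend) of limma 3.58.1, with Benjamini-Hochberg adjustment over 11169 probes. The procedure was tested on simulated data with noise drawn independently for each probe and array. Genes that move together between arrays were not simulated. A gene in a list took its brightest probe.

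Members, gene lists and the omission of low gainer array 2 were chosen with earlier results of these data known, so they are not independent evidence. Named genes were all members, up to 4 genes with the smallest p of each of 5 oligodendrocyte lists, Olig2, and the 10 genes most like the members. Omg, Anxa5, Plekhb1, Ppp1r14a and Pdgfra were named after their values were seen. Alternatives were median centring, cyclic loess, no further normalization, 8 arrays, the brightest 50% of probes, a pseudocount of 0.186, probes with at least 2 values per pool, all probes of a gene, no trend, array weights, a replicate block, the methods' t-test and leaving out each array.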

Additional observations from a re-analysis of the deposited data

Results flagged for a closer look

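Of the 8 members and 18 other oligodendrocyte genes, all arrays singled out here are low gainer array 2. That array correlated with the others at an r of 0.228 to 0.253, so whether its values belong to the genes they are listed under is uncertain. Its deposited intensity was above low gainer arrays 1, 3 and 4 for Mag at 1.21 (highest of those arrays 0.658), Gal3st1 at 0.981 (0.427), Cyp51 at 2.97 (1.93) and Olig2 at 4.86 (0.419). Among the 4 low gainer arrays, its gap to the nearest array on the log2 scale, as a share of the whole range, passed Dixon's limit for Gal3st1 at 0.832, on the high side, and for St18 at 0.892 and Ptgds at 0.934, on the low side. Chance flags about 1 in 20 groups, and 37 groups of 4 arrays were examined.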

How the results depend on the processing

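No member was called at the adjusted threshold under any alternative, by limma or by the methods' t-test, and without each array in turn the count was 0 in every case. Over all probes, 171 were called without low gainer array 1 and 2 to 4 without each other array. With an unadjusted p of 0.01 and 1.5-fold by limma, 2 members passed, Mag and Mbp. The median log2 difference of the members was 0.20 to 0.81 without each array in turn and stayed above 0 in all alternatives. With the replicate block it was 0.36, and Mal was at -0.0035. Same-numbered arrays of the pools deviated with an r of -0.199, 0.131 and -0.139 for numbers 1, 3 and 4. Of 3 high gainer arrays, 0 correlated best with their own number. With so few arrays, and low gainer array 2 left out, this cannot decide whether same-numbered arrays were run together. The block gave 5 higher and 4 lower probes, where 3 and 0 were called without it. With the block, the limma adjusted p was 0.159 for Mbp and 0.268 for Mag. Differences below 0 without low gainer array 3 were -0.21 for Mog, -0.061 for Mal and -0.041 for Cldn11, and Mal was at -0.0034 without high gainer array 2 and -0.093 without low gainer array 1. Without each array in turn, Mog ran from -0.21 to 0.37 and Mal from -0.093 to 0.48. The median deviation of the members on low gainer array 1 was -0.40 with the brightest 50% of probes, which left 5 members, and that on low gainer array 4 was 1.31 with 8 arrays, which left 3. Without each other array in turn, the median deviation was 0.34 to 0.46 on high gainer array 2, -0.27 to -0.087 on high gainer array 3, -0.73 to -0.37 on low gainer array 3 and 0.21 to 0.73 on low gainer array 4. The limma adjusted p over the alternatives was 0.0581 to 0.999 for Mbp, 0.0705 to 0.999 for Mag and 0.0611 to 0.999 for Trf. The cause of these shifts was not tested. With 4 and 3 arrays, dim probes such as Mag and Olig1 limit the precision.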
